A study of Homo sapiens with 3 samples.

Results

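Cyclin D, its partner kinases CDK4 and CDK6 and the inhibitors that hold them back set the pace of the G1 phase. D-type cyclins bind CDK4 or CDK6, and the active kinase phosphorylates the retinoblastoma protein, which then releases E2F factors that switch on S phase genes. Inhibitors of the INK4 family bind the kinases themselves, while those of the CIP/KIP family bind whole cyclin and kinase complexes. FOXM1, a transcription factor of the forkhead family, is known mainly for the genes it drives in G2 and M phase, and it is itself a substrate of CDK4 and CDK6.

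The 10 genes described were the D cyclins CCND1, CCND2 and CCND3, the kinases CDK4 and CDK6, the CIP/KIP inhibitors CDKN1B and CDKN1C and the INK4 inhibitors CDKN2A, CDKN2B and CDKN2C, out of 19974 protein-coding genes on chromosomes 1 to 22 and X. A peak belonged to a gene if its summit, the base of highest enrichment, lay inside the gene or within 5 kb of it. The study held 3 samples of Huh7, an established line of human hepatocellular carcinoma, left without treatment: 2 ChIP-seq libraries pulled down with G-5, an antibody against FOXM1, which their titles number 2 and 3, and 1 input library without antibody. ChIP-seq sequences the DNA fragments that an antibody pulls down from sheared chromatin, and the input was represented by no peak list here. By this rule 21 of 8271 peaks of replicate 2 and 28 of 11502 peaks of replicate 3 belonged to the 10 genes. The summit nearest to the limit was 4476 bp from CCND1, and the nearest beyond it were 8228 bp from CDKN2B, at CDKN2A, and 9639 bp and 9711 bp from CDK4. Whether separate cultures stood behind the ChIP libraries is not in the labels, and the specificity of the peaks for FOXM1 was not tested, since no library came from another antibody or from cells without FOXM1. The peak lists hold no expression, so neither the cell type nor the activity of any gene could be read from them.

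Of the 10 genes, 6 had a peak in replicate 2, against 33.3% of all protein-coding genes, and 8 had one in replicate 3, against 41.3%. Overlapping peaks in both libraries, by at least 1 bp, were called at 5 genes, against 25.5% of protein-coding genes: CCND1, CDK4, CDKN1B, CDKN1C and CDKN2C. CDK6 had peaks in each library that did not overlap, CDKN2A and CDKN2B had peaks in replicate 3 alone, and CCND2 and CCND3 had none. Over all protein-coding genes 46.2% had a peak in at least 1 library. No share over all genes is given for peaks that did not overlap or stood in 1 library alone. By role, overlapping peaks were called at 1 of 3 cyclins, 1 of 2 kinases, 2 of 2 CIP/KIP inhibitors and 1 of 3 INK4 inhibitors.

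These counts depended on how close and how strong a peak had to be. With summits within 1 kb of a gene's end, the rest of the gene body was left out. Overlapping peaks were then called at 2 genes, CCND1 and CDKN1B, against 18.9% of protein-coding genes. The CDKN1B call rested on peaks that overlapped by only 18 bp, with summits 273 bp apart. With −log10 q of at least 5 in both libraries CCND1 alone was called, against 6.36% of protein-coding genes, and with fold of at least 4 in both CDKN2C alone, against 8.33%. The genes had a median length of 13604 bp, against 24170 bp for all protein-coding genes. With 10 genes chosen when earlier results were known, the shares carry no test.

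Fold enrichment is the authors' own value for each peak, the linear ratio of ChIP signal to local background at the summit. At the peaks of the 10 genes it had a median of 3.69 in replicate 2 and 3.66 in replicate 3, against 3.76 and 3.78 over all peaks of those libraries. The highest values at these genes were 4.60 in replicate 2 and 4.80 in replicate 3, against 8.09 and 9.58 over all peaks. Those highest values were at or above 85.4% of replicate 2 peaks and 89.1% of replicate 3 peaks.

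**Figure D1:**
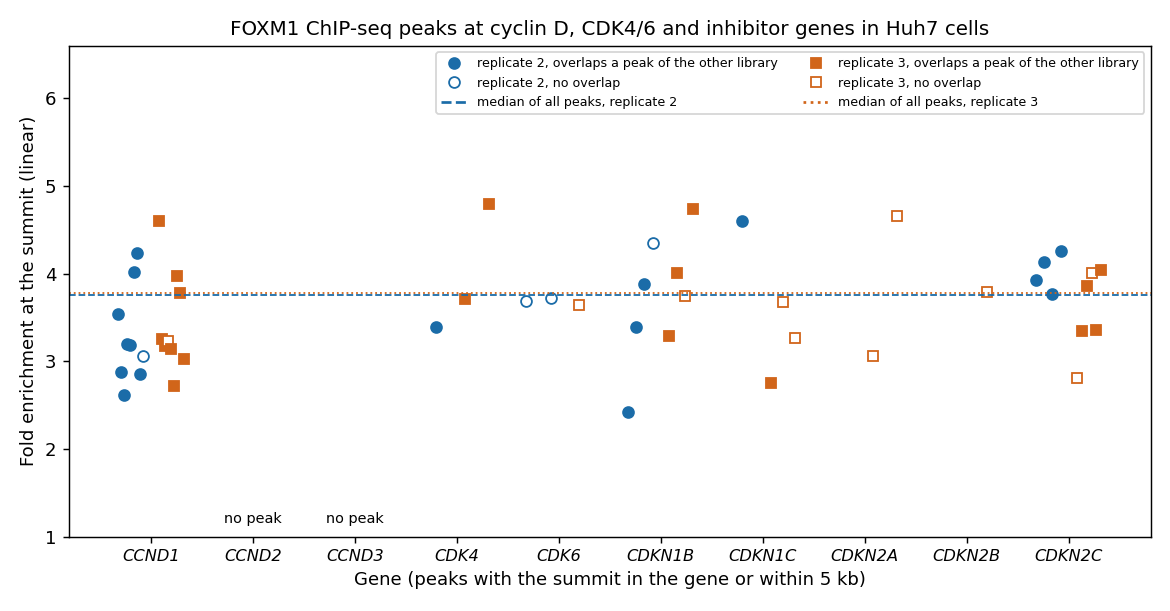
Fold enrichment at the summit (linear) of each peak at the 10 genes, with replicate 2 as circles and replicate 3 as squares, filled where the peak overlaps one of the other library. Dashed and dotted lines mark the medians of all peaks, 3.76 and 3.78; CCND1 has 9 points per library and CCND2 and CCND3 have none.

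Several of the summits fell in RefSeq promoter windows, the 250 bases before to 50 bases after an annotated transcription start (GRCh38.p14). The windows below are shown because a summit lies in each of them and because they show which start it lies at. The first 3 belong to genes of the cell cycle set: the window of CDKN2C holds a summit of each library, 116 bp before the start in replicate 2 and 35 bp before it in replicate 3, that of CDK6 holds a replicate 2 summit 113 bp before the start, and that of CDKN1B holds a replicate 2 summit 200 bp before the start. The other 2 are starts of neighbours: CDKN2B-AS1, a long noncoding RNA gene that overlaps CDKN2A and CDKN2B, has a replicate 3 summit 116 bp before its start, and MARCHF9, a membrane ubiquitin ligase gene next to CDK4, has a replicate 3 summit 27 bp past its start. Capitals mark GC box letters (GGGCGG or its reverse complement CCGCCC) and forkhead core letters (TGTTTA or its reverse complement TAAACA), each searched on both strands and read 5′ to 3′ on the strand of the named gene.
CDKN2C (chr1:50968456-50968755, plus strand): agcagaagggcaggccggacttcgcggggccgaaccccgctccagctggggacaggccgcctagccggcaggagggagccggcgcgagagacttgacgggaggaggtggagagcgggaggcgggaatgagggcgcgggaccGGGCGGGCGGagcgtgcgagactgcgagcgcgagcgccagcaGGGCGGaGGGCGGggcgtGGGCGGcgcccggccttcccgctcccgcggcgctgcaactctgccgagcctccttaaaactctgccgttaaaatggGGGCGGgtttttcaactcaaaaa
CDK6 (chr7:92836524-92836823, minus strand): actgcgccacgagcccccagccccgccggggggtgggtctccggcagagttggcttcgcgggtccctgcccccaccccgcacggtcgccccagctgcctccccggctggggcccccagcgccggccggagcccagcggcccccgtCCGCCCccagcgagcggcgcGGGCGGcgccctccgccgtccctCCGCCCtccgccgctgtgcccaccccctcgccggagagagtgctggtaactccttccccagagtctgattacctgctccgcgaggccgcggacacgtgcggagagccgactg
CDKN1B (chr12:12717118-12717417, plus strand): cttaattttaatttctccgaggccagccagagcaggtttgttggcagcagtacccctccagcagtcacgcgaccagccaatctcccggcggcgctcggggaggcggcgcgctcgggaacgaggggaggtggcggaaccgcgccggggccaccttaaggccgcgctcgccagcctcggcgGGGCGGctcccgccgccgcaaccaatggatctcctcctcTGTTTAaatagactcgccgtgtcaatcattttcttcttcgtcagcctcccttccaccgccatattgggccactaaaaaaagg
CDKN2B-AS1 (chr9:21994541-21994840, plus strand): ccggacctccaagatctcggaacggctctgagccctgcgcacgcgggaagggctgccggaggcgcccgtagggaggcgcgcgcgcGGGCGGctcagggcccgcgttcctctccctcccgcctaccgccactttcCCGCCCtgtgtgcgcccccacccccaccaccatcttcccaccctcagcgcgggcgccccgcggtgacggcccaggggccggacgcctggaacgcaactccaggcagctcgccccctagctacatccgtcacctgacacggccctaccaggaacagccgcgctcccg
MARCHF9 (chr12:57754853-57755152, plus strand): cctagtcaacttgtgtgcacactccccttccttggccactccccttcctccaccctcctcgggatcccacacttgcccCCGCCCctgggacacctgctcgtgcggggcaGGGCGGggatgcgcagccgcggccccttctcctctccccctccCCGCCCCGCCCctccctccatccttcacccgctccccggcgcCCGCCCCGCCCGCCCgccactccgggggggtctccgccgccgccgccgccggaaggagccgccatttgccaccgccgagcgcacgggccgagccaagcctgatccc

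Summits also fell in 2 windows not printed, those of APOLD1, a gene beside CDKN1B, in replicate 2 and of FAF1, whose start faces that of CDKN2C, in replicate 3. The share of G and C was 71.3% at CDKN2C, 78.0% at CDK6, 62.3% at CDKN1B, 74.0% at CDKN2B-AS1 and 75.3% at MARCHF9, and 64.3% and 59.3% in the unprinted windows of FAF1 and APOLD1, against a median of 58.7% over 35116 promoter windows. GC box letters occur in all 7 windows, from 7 matches at MARCHF9 and 6 at CDKN2C, some of which overlap, to 1 at CDKN1B and 1 at FAF1. At least 1 such match was present in 45.0% of all windows. The 7 windows were picked because they hold a summit. The same shares over all windows that hold a summit were not computed, so no trait of these genes can be read from them. Forkhead core letters occur in the CDKN1B window alone among these 7, once, against 12.3% of all windows. That match lies outside the peaks, past the end of the replicate 2 peak at 12717298 and of the replicate 3 peak at 12717080. The longer form TGTTTAC occurs in none of the 7, against 3.42% of all windows. The letters TTTGAA of the cell cycle homology region, a promoter element through which FOXM1 is known to be recruited with the MuvB complex, occur once, in the APOLD1 window, and in none of the other 6 (15.2% of all windows). A match is only a run of letters, and a window without one says nothing about the factor.

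RefSeq windows were matched for 7 of the 10 genes, 13 windows in all, and not for CCND1, CCND2 and CDKN1C. Not all of these hold a summit. Over the 13, GC box letters were present in 9, forkhead core letters in 3 and TTTGAA in 0, against 45.0%, 12.3% and 15.2% of all windows. Forkhead core letters lay in a window of CCND3, which had no peak, and in a CDKN2C window without a summit. The other match was that in the CDKN1B window, outside the peaks. Other letters were searched too. The E-box letters CACGTG were present in 4 (7.26% of all windows) and the NF-Y box letters CCAAT in 4 (34.6%). Of the E-box windows only that of CDK6 holds a summit. The longer forkhead form was present in 1 (3.42%), a window of CCND3. The E2F letters TTTCCCGC and TTTGGCGC were present in 0 (1.63% and 0.652%). At the 7 genes 4 of 11 replicate 2 summits and 4 of 16 replicate 3 summits lay in some listed window, against 24.8% and 25.1% of all peaks on the chromosomes searched.

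CCND1 encodes cyclin D1, the D cyclin that is amplified or overexpressed in many tumours. It had 9 peaks in each library, more than any other of the 10 genes, within a window of 23.3 kb (gene at chromosome 11, 69641156 to 69654474). In replicate 2 only 3 protein-coding genes had 9 or more peaks by this rule, CCND1 included, and in replicate 3 it was 16. Both libraries reached 9 at 2 genes, CCND1 and 1 other. Averaged over the libraries this came to 0.386 peaks per kb of window.

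**Figure D2:**
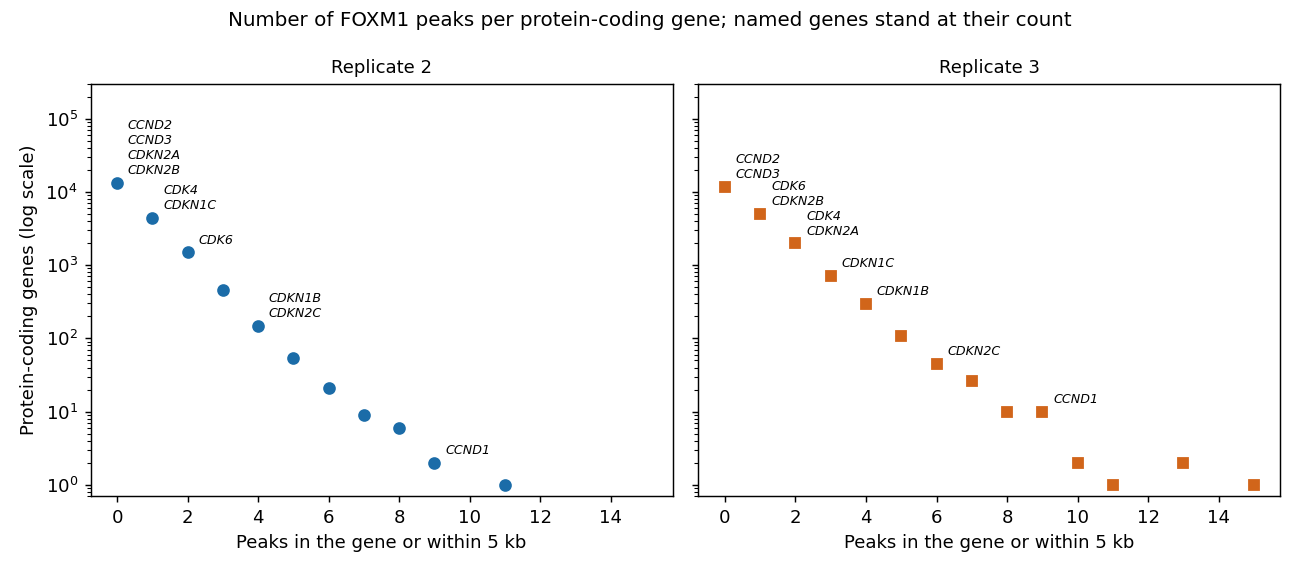
Number of protein-coding genes (log scale) against the number of peaks in the gene or within 5 kb, in replicate 2 (circles) and replicate 3 (squares). The names of the 10 genes stand beside the point of their count: CCND1 at 9 in each library, CDKN2C at 4 and 6, CDKN1B at 4 and 4.

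The peaks of CCND1 spread on both sides of its lower-coordinate end. The outermost summits lay 4448 bp outside the gene in replicate 2 and 4476 bp outside in replicate 3, with fold 3.54 on 41 fragments and 4.60 on 51 fragments. Fragments are whole ChIP fragments at the summit, rebuilt from the deposited fold and p. This was the strongest CCND1 peak of replicate 3 (−log10 q of 11.5), while in replicate 2 it stood at 5.76.

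Closer in, overlapping peaks followed in both libraries. At 3817 bp outside in replicate 2 and 3941 bp in replicate 3 fold was 2.88 and 3.26, and at 3119 bp and 3126 bp it was 2.61 and 3.18. At 1864 bp and 1861 bp fold was 3.19 and 3.14, with the summits 3 bp apart. Just before the gene's lower end, at 166 bp and 189 bp, fold was 3.19 and 2.72. Replicate 3 had a further peak at 2750 bp outside, with fold 3.24, that no replicate 2 peak overlapped.

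Inside the gene peaks of one library overlapped more than 1 of the other. A replicate 2 peak with its summit 985 bp inside (fold 4.02) overlapped 2 peaks of replicate 3, at 676 bp (fold 3.97) and 1008 bp (fold 3.78). The strongest CCND1 peak of replicate 2 lay 1608 bp inside, with fold 4.23, −log10 q of 10.9 and 56 fragments. It and the next peak of replicate 2, at 2184 bp (fold 2.85), were both overlapped by a single replicate 3 peak of 1136 bp, whose summit at 2134 bp had fold 3.02 on 58 fragments. A last replicate 2 peak at 3260 bp (fold 3.06) had no partner.

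Beyond it the rest of the gene body was free of peaks in both libraries, and the next summits stood 21018 bp past the higher-coordinate end in replicate 2 and 20896 bp past it in replicate 3, at LTO1. All 9 overlapping pairs at CCND1 had fragment counts whose exact Poisson 95% intervals overlapped between the libraries, but intervals at such counts are wide. The widest contrast in fold, 4.23 against 3.02, went with 56 and 58 fragments over rebuilt backgrounds of 10.5 and 16. Those summits were 526 bp apart, so the values belong to different positions. The same replicate 3 summit lay 50 bp from the next replicate 2 summit, which had fold 2.85 on 56 fragments over a background of 16.

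The local background at CCND1 was high. Rebuilt from fold and p, it ran from 8.20 to 16 fragments at the replicate 2 peaks and from 8.85 to 16 at those of replicate 3, with a median of 11 in each library, against 5 over all peaks. The lowest CCND1 value was at or above that of 89.5% of replicate 2 peaks and 91.7% of replicate 3 peaks. CCND1 lies in the stretch of chromosome 11 from 65 to 70 Mb, where the medians were 13 over 199 replicate 2 peaks and 11.7 over 243 replicate 3 peaks. Median fold at CCND1 was 3.19 in replicate 2 and 3.24 in replicate 3, against 2.99 and 2.96 in the whole stretch. Median fragment counts were 44 and 45 at CCND1, against 26 and 24.5 over all peaks. The part of the high background in the number of calls at CCND1 was not tested.

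**Figure D3:**
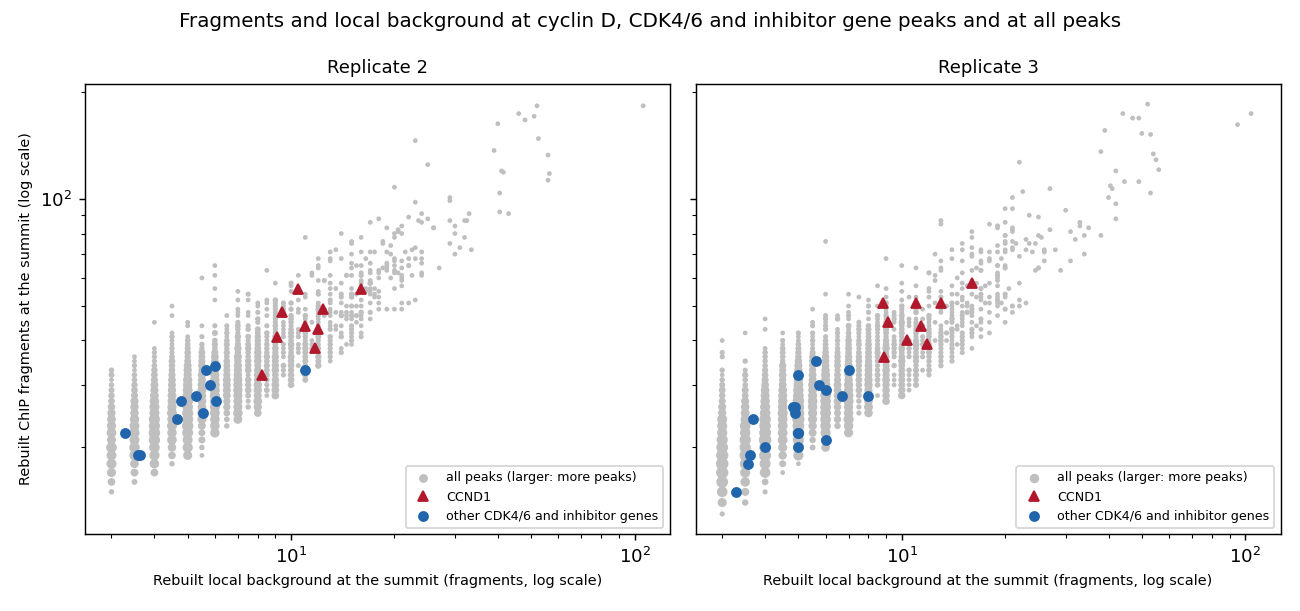
Rebuilt ChIP fragments at the summit against rebuilt local background (both log scales) for all peaks (grey, larger for more peaks), the CCND1 peaks (triangles) and those of the other genes of the set (circles). CCND1 stands at backgrounds of 8.20 to 16 fragments, and the others mostly near the median of all peaks, 5.

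The other D cyclins had no peak. At CCND2, which encodes cyclin D2, the nearest summit of replicate 2 was 242396 bp away and that of replicate 3 was 15738 bp away, at TIGAR, a regulator of glycolysis (fold 3.50). At CCND3, which encodes cyclin D3, the nearest summits were 54502 bp away in replicate 2 and 13255 bp away in replicate 3, where the replicate 3 summit stood at MED20 and BYSL (fold 3.75). Peaks below the threshold of the lists, a q of 0.05, were not in them, so a weaker enrichment at either gene is not detectable here.

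CDK4 encodes a kinase that D cyclins activate (chromosome 12, 57747727 to 57752310). Its peaks lay outside the gene, before its start. Replicate 2 had a summit 3018 bp before the start, with fold 3.39 and 25 fragments. Replicate 3 had summits 2820 bp and 3504 bp before it, with fold 3.71 and 4.80 on 33 and 32 fragments, and both of these peaks overlapped that of replicate 2. The peak of fold 4.80, with −log10 q of 7.24, was the highest at any of the 10 genes. All 3 summits were nearer to the start of MARCHF9, at 225 bp in replicate 2 and at 27 bp and 711 bp in replicate 3, and to which gene they belong was not tested. TSPAN31, a tetraspanin gene that overlaps CDK4, also lies within 5 kb of the replicate 3 summit at 2820 bp. Within 1 kb of CDK4 itself neither library had a peak.

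CDK6 encodes the other cyclin D kinase, and at 231653 bp it is the longest gene of the set (chromosome 7, 92604921 to 92836573). Its few peaks lay near its annotated starts at the higher-coordinate end. Replicate 2 had summits 113 bp before the outermost start (fold 3.73) and 1272 bp past it (fold 3.69). Replicate 3 had a summit 3085 bp inside the gene, 471 bp past the second annotated start (fold 3.65). No peak of one library overlapped one of the other. Each rested on 18 or 19 fragments, with −log10 q of 2.95, 2.88 and 2.55, below the medians of all peaks, 3.82 in replicate 2 and 3.83 in replicate 3. The start of the noncoding gene CDK6-AS1 lies in the same region.

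CDKN1B encodes p27, a CIP/KIP inhibitor of cyclin E and CDK2 as well as of cyclin D complexes (chromosome 12, 12717368 to 12722369). It had 4 peaks in each library, split between the stretch before its start and the stretch past its far end. Before the start, replicate 2 had a summit at 200 bp with fold 2.42 and replicate 3 one at 473 bp with fold 3.29. These peaks overlapped by only 18 bp, and an end of GPR19, an orphan receptor gene, lies in the same stretch. The replicate 2 peak was the weakest at the 10 genes in that library by fold, with −log10 q of 1.68, although it held 33 fragments, over a background of 11 against 6.71 at the replicate 3 peak.

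Past the far end, fold was higher in replicate 3 at both overlapping pairs. At 1567 bp in replicate 2 and 1619 bp in replicate 3 fold was 3.39 and 4.01. At 2597 bp and 2602 bp, with the summits 5 bp apart, fold was 3.88 and 4.74, and −log10 q was 4.92 and 8.06. Fragment counts at this last pair were 30 (exact Poisson 95% interval 20.2 to 42.8) and 35 (24.4 to 48.7), wide intervals that overlapped. Replicate 3 had a further peak at 2016 bp (fold 3.74), and replicate 2 had one at 3322 bp (fold 4.36).

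Of these 6 peaks 3 stood near listed starts of other genes. The pair 5 bp apart lay 157 bp and 152 bp past the annotated start of LOC105369663, a noncoding gene, and the last replicate 2 summit lay 226 bp before that of APOLD1, an endothelial early response gene. The summits of the other 3 lay further past the LOC105369663 start, at 1187 bp in replicate 2 and at 1135 bp and 738 bp in replicate 3. The next summits beyond the window were 64570 bp from CDKN1B in replicate 2 and 64611 bp in replicate 3, also within or near APOLD1.

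CDKN1C encodes p57, the other CIP/KIP inhibitor of the set and an imprinted gene (chromosome 11, 2883218 to 2885775). It is the shortest of the 10 genes, at 2558 bp, and all its peaks lay inside it. The noncoding gene SLC67A1-AS lies within 5 kb of each of them. Replicate 2 had a summit 886 bp from the lower end, with fold 4.60, the highest of that library at the 10 genes. Replicate 3 had summits 1224 bp from the lower end and 694 bp and 201 bp from the higher end, with fold 2.75, 3.68 and 3.27. The first of these overlapped the replicate 2 peak, by 170 bp, with summits 338 bp apart. The contrast in fold there, 4.60 against 2.75, went with 22 and 21 fragments over backgrounds of 3.28 and 6. The replicate 3 calls were weak, with −log10 q of 1.68, 3.04 and 1.87, against 4.52 in replicate 2.

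CDKN2A, which encodes p16 and, from another start and reading frame, the p53 activator ARF, had peaks in replicate 3 only (chromosome 9, 21967752 to 21995324). Its summits lay 1025 bp and 649 bp past the outermost of its annotated starts, with fold 3.06 and 4.65 on 20 and 24 fragments. The stronger one, with −log10 q of 5.14, is the summit in the CDKN2B-AS1 window printed above. The weaker one lies 271 bp before the start of LOC124902130, a noncoding gene. CDKN2B, which encodes p15, lies next to it (22002903 to 22009313) and had 1 peak, in replicate 3, 3271 bp past its start with fold 3.79 on 19 fragments. CDKN2B-AS1 spans that position too. Replicate 2 had no peak at either gene, and its nearest summit was 437862 bp from CDKN2B. Whether the libraries differ here was not tested, and the replicate 3 peak at CDKN2B had −log10 q of 2.99, below the median of all replicate 3 peaks.

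CDKN2C encodes p18, the third INK4 inhibitor, and had the most peaks of the inhibitors over both libraries, with 4 in replicate 2 and 6 in replicate 3 (chromosome 1, 50960745 to 50974634). Most of these lay around the second of its 3 listed starts, inside the gene. At 478 bp before that start in replicate 2 and 565 bp in replicate 3 fold was 3.93 and 3.35. At 116 bp and 35 bp before it, in the promoter window printed above, fold was 4.13 on 27 fragments and 3.86 on 25. Replicate 3 alone had a peak 321 bp past this start, with fold 4.01.

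The remaining CDKN2C peaks lay further past this start and beyond both ends of the gene. At 705 bp past the same start in replicate 2 and 718 bp past it in replicate 3, with the summits 13 bp apart, fold was 3.77 and 3.35. Beyond the far end, at 3347 bp in replicate 2 and 3562 bp in replicate 3, fold was 4.26 and 4.05. This pair was the only overlapping pair at the 10 genes with fold of at least 4 in each library. Before the gene's lower end replicate 3 had a peak 513 bp outside, with fold 2.81, whose summit was 35 bp past the start of FAF1, a Fas-associated factor gene.

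**Figure D4:**
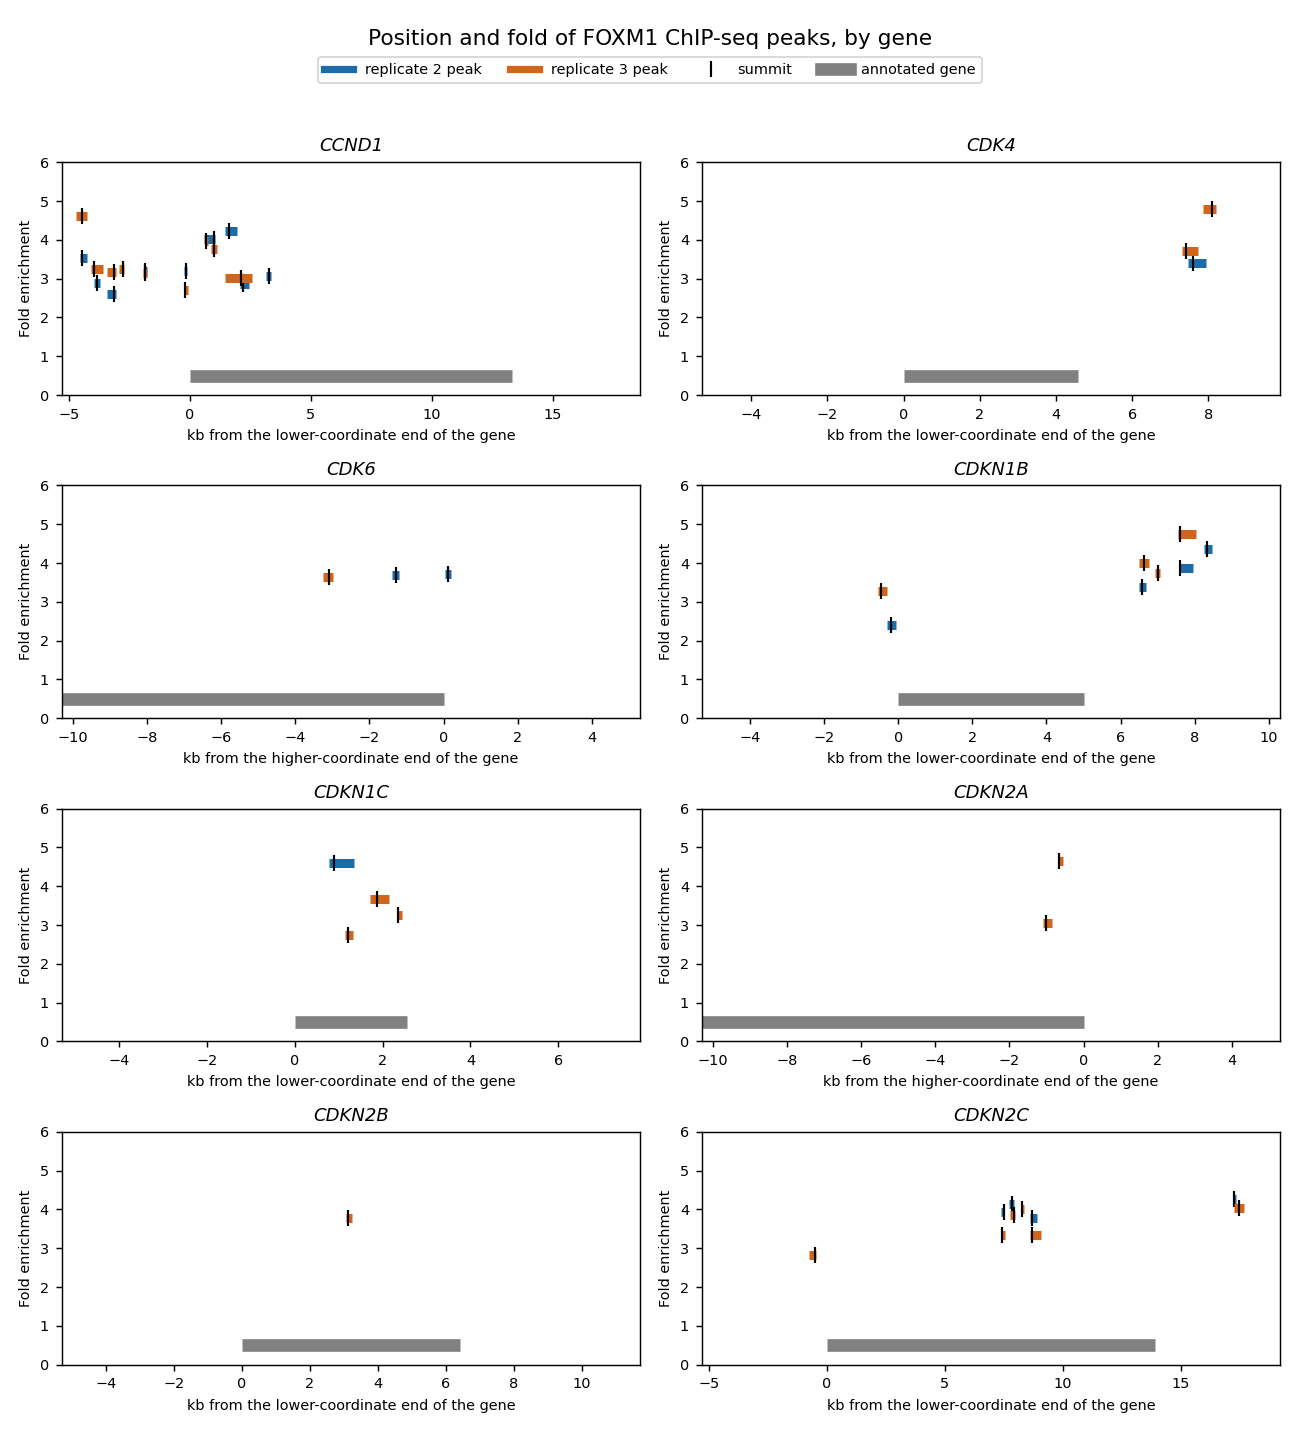
Peaks (bars, to scale) with summits (ticks) at the 8 genes that had any, placed by distance in kb from an end of the gene (grey bar) and by fold enrichment, replicate 2 in blue and replicate 3 in orange. CCND1 peaks lie from 4476 bp outside the gene to 3260 bp inside it; for CDK6 and CDKN2A only the higher-coordinate end of the gene is drawn.

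Across the set, 19 overlapping pairs of peaks were called, 9 at CCND1, 4 at CDKN2C, 3 at CDKN1B, 2 at CDK4 and 1 at CDKN1C. In all 19 the exact Poisson intervals on fragments overlapped between the libraries. Such intervals are wide and both peaks of a pair had passed the same threshold, so their overlap does not show that the libraries match. Of the peaks at the 10 genes 17 of 21 in replicate 2 and 18 of 28 in replicate 3 had a partner that overlapped them, against 69.4% and 49.5% of all peaks. Leaving out CCND1, these were 9 of 12 and 10 of 19.

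Among 24 other genes of the G1/S switch, 12 had overlapping peaks in both libraries by the same rule, against 25.5% of protein-coding genes, and 18 had a peak in at least 1 library, against 46.2% of protein-coding genes. The rule takes in the whole gene body, and the part of gene length in these counts was not tested. The lengths of the 24 genes were not matched to those of all protein-coding genes. AMBRA1, which encodes the ubiquitin ligase adaptor that marks D cyclins for degradation, had the highest lower fold of the libraries among these, with 5.38 in replicate 2 and 6.09 in replicate 3, but at 4590 bp and 4489 bp outside the gene. FBXO31, an F-box protein known to target cyclin D1, had 4 peaks in each library, with 4.55 and 4.65 at the strongest pair, 295 bp and 322 bp outside the gene.

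Some genes of E2F factors and of the cyclins that act after cyclin D also had overlapping peaks. TFDP1, the dimer partner of E2F factors, had fold 4.95 in replicate 2 and 4.59 in replicate 3, at 450 bp and 330 bp inside the gene. E2F1 had 4.02 and 3.88 and E2F3 had 3.93 and 3.62. E2F5 had 5.78 and 3.62, on 40 and 28 fragments. E2F2 and E2F4 had a peak in replicate 3 alone, and TFDP2, another dimer partner, had one in replicate 2 alone. The gene of cyclin A2, CCNA2, had 5.40 and 4.15 at 29 bp and 16 bp from an end, and that of cyclin E1, CCNE1, had 3.92 and 5.47 at 125 bp and 103 bp. CDC25A, the phosphatase that activates CDK2, had 4.09 and 4.11.

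Of the retinoblastoma family, RBL1, which encodes p107, had fold 3.86 and 4.09, 4506 bp and 4705 bp inside the gene. RB1 and CCNE2 were the others of the 12. Neither library had a peak at RBL2, at the CDK inhibitor gene CDKN1A, at CKS1B or at the genes of the CDK-activating kinase, CCNH, CDK7 and MNAT1. CDKN2D, the remaining INK4 gene, had 1 peak in each library that did not overlap, while SKP2 had a peak in replicate 3 alone and CDK2 in replicate 2 alone.

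**Figure D5:**
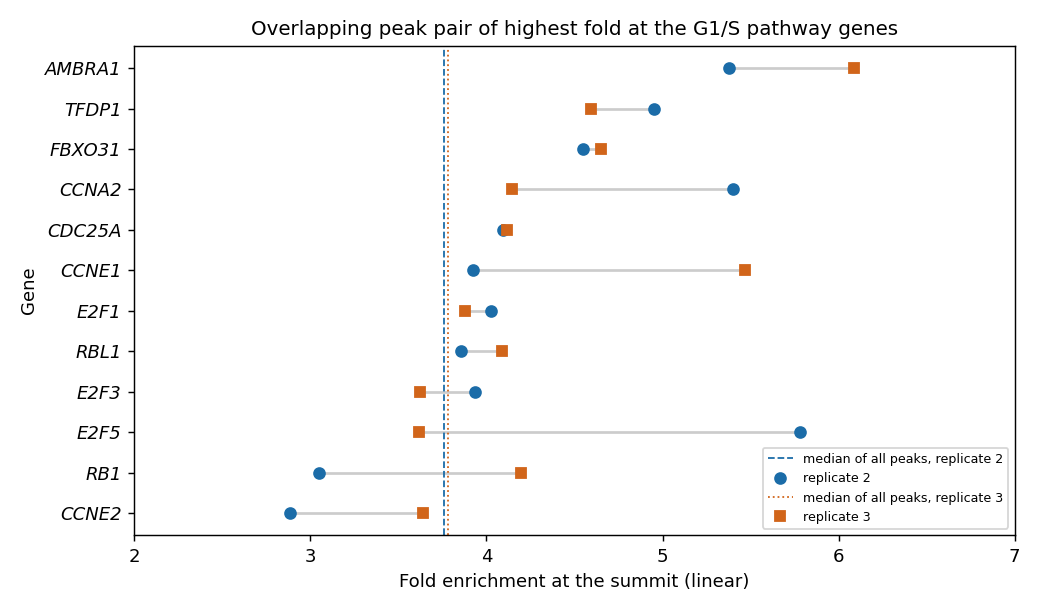
Fold enrichment at the summit (linear) in replicate 2 (circles) and replicate 3 (squares) of the overlapping peak pair of highest lower fold at each of the 12 G1/S pathway genes that had one. Genes are ordered by the lower fold, with AMBRA1 first at 5.38 and 6.09, although E2F5 and CCNA2 have higher replicate 2 folds, 5.78 and 5.40, and the lines mark the medians of all peaks, 3.76 and 3.78.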

How the data were processed

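The tools named, per the submitters' processing notes, were CASAVA 1.4, BWA and MACS2 2.2.7.1, and the build GRCh38, without roles or order. Each ChIP library had its own peak list. Filters and duplicate handling are not given in the sources used here. The deposited fold is a linear ratio taken at the summit, where the format adds a pseudocount of 1. The deposited −log10 p and −log10 q belong to the same base, and the deposited score, 10 times the −log10 q without its decimals, was left unused.

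Fragment counts and local background were rebuilt from deposited fold and p, with p as a Poisson upper tail and within 0.001 of the deposited −log10 p. All peaks (100%) were rebuilt, with a ChIP to control scale of 0.848 in replicate 2 and 0.869 in replicate 3, and 100% of 830 simulated peaks got their exact count. The simulated peaks were made with the same formula, so they check the computation and not whether the deposited values follow it. The labels do not say which library served as control. Intervals on fragments are exact Poisson 95% intervals and cover counting error only. Total read counts were not used here.

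Gene positions and promoter windows came from RefSeq tables of GRCh38.p14, and coordinates are 1-based. Exon and intron positions were not used here. Peaks were shared where they overlapped by at least 1 bp with both summits at the gene. No test was run: counts stand beside those over 19974 protein-coding genes. The genes and lists were chosen with earlier results of these data known. All 10 genes are named, with neighbours that could share their peaks and, of the 24 pathway genes, the 10 of highest lower fold, while the others were named after their values were seen. Alternatives were other windows, thresholds and definitions of overlap, each library alone and, added after seeing the data, medians without CCND1. Computations used Python 3.11.15, numpy 2.4.6, pandas 2.3.3, SciPy 1.17.1 and matplotlib 3.10.9.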

Additional observations from a re-analysis of the deposited data

How the results depend on the processing

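Overlapping peaks were called at 5 of the 10 genes. With summits within 1 kb of a gene end it was 2, with −log10 q of at least 5 it was 1, with fold of at least 4 it was 1 and under a limit of 100 bp between summits it was 3, while the windows of 1 kb and 10 kb and reciprocal overlap of at least 50% gave 4 to 5. Leaving out a library gave 6 to 8. Over all protein-coding genes the share was 25.5%. It was 23.1% and 27.9% with the windows of 1 kb and 10 kb. Summits within 1 kb of a gene end gave 18.9%. Under the stricter q, the stricter fold, the 100 bp limit on summits and the reciprocal overlap it was 6.36%, 8.33%, 15.6% and 16.9%. Leaving out a library gave 33.3% to 41.3%. The 12 pathway genes became 4 under the stricter q and 5 under the stricter fold. In replicate 2 alone, 6 genes became 3 under the stricter q. In replicate 3 alone, 8 became 5 with summits within 1 kb of a gene end, 4 under the stricter q and 5 under the stricter fold. For these single-library settings no share over all protein-coding genes is given, so whether the 10 genes fell more or less than others cannot be read here.

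Median fold at the genes' peaks was 3.69 in replicate 2 and 3.66 in replicate 3. It was 3.75 and 3.35 within 1 kb, 3.78 and 3.98 under the stricter q, 3.54 and 3.53 over overlapping peaks and 3.83 and 3.71 without CCND1, chosen after seeing the data. At the overlapping pairs, each library alone differed from the mean fold by less than the spread between the libraries. That holds for any 2 values, so it says nothing about stability. No paired analysis was possible because the only groups with peaks form 1 condition. Summits at these genes held 15 to 58 fragments, and the limit of detection for weaker peaks was not tested.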
